A study of Mus musculus with 12 samples.

Results

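The hedgehog receptors and response genes examined here are 8 loci: *Ptch1*, *Smo*, *Boc*, *Cdon*, *Gas1*, *Hhip*, *Gli1* and *Gli2*. Their members are the peak summits of the deposited lists that lie within 100 kb of the body of one of these genes, on the mouse build mm10. Together the 8 windows span 2.18 Mb and do not overlap. They hold 903 of the 268431 summits in the 12 lists of the series, namely 188 β-catenin and 715 H3K27ac summits. The forelimb buds came from wild-type Swiss Albino embryos of both sexes and were dissected 6 h after the pregnant female was injected at E10.5. The injection was either C59, an inhibitor of the porcupine enzyme that cells need to secrete WNT ligands, or DMSO, which served as the wild-type control. Per the study's methods, controls received DMSO in PBS, whereas the solution of C59 also held methylcellulose and Tween. Chromatin from pooled forelimb buds was used for ChIP-seq of β-catenin, the transcriptional co-activator of canonical WNT signaling, and of H3K27ac, a histone mark of active promoters and enhancers. Each antibody and treatment has 2 replicate lists and 1 consensus list, in which the authors kept summits called on both replicates together that lie in a peak of each.

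In hedgehog signaling, the secreted ligand SHH binds the receptor PTCH1 with the help of the co-receptors BOC, CDON and GAS1. Ligand binding relieves the inhibition of SMO, and the GLI transcription factors then activate their targets, among them *Ptch1*, *Gli1* and *Hhip*. SHH is made in the posterior margin of the limb bud and patterns the digits. The WNT effector β-catenin has no DNA-binding domain of its own and is brought to chromatin by TCF/LEF factors, which recognise the core ATCAAAG or TTCAAAG.

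The tissue label was checked against the promoters of marker genes. An H3K27ac summit was within 1 kb of the start of transcription (TSS) in all 4 replicate lists for 5 of 5 limb mesenchyme genes and for *Tbx5*, which marks the forelimb. Of the markers of the hindlimb and of other cell types, *Pitx1*, *Krt14*, *Trp63*, *Fgf8*, *Myod1*, *Kdr* and *Gata1* had none in any list. *Tbx4*, *Epcam*, *Lbx1* and *Tal1* had one in all 4, and *Pax3*, *Cdh5*, *Tek* and *Spi1* in 1 to 3. *Krt14*, *Trp63*, *Epcam* and *Fgf8* mark ectoderm, which is part of the bud. The paper shows *Fgf8* expression in the apical ridge of such buds, so a missing summit does not show that a cell type was absent. Among the 3 blood markers, *Spi1* was listed in neither control replicate and at fold enrichments of 3.30 and 4.13 after C59. *Tal1* had 3.07 and 3.53 in controls and 4.01 and 5.22 after C59, while *Gata1* had none, and the part of blood cells in the results was not tested. In bulk tissue, binding in fewer cells and less binding per cell cannot be told apart. Depth was not lower with C59. Total fragment length, read from the lists, was 2.93 to 3.39 Gb for β-catenin in controls against 3.40 to 3.42 Gb with C59. For H3K27ac it was 5.03 to 5.39 Gb against 5.56 to 5.93 Gb.

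The sequences of the control β-catenin sites with the highest consensus fold enrichment at each locus are shown first, since the comparison of treatments turns on them. Each is a window of 61 bases on the strongest control consensus summit of a locus, on the plus strand of mm10, with a TCF/LEF core in capitals where the window holds one. The strength of a summit is its fold enrichment, the ratio of the fragment coverage to the coverage that the peak caller expected there.
Ptch1, chr13:63451357-63451417, intron of Fancc: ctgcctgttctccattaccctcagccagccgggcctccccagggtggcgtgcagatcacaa
Smo, chr6:29711201-29711261, intron of Tspan33: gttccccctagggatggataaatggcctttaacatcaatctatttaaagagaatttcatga
Boc, chr16:44550293-44550353, intron of Boc: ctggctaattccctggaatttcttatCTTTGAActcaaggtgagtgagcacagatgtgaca
Cdon, chr9:35326961-35327021, intergenic: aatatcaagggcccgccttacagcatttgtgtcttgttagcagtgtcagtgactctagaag
Gas1, chr13:60231706-60231766, intergenic: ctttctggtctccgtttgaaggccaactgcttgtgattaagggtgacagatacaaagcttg
Hhip, chr8:80091657-80091717, intergenic: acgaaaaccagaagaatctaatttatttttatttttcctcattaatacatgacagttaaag
Gli1, chr10:127289269-127289329, intergenic: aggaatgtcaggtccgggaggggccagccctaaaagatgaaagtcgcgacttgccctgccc
Gli2, chr1:118904974-118905034, intron of Gli2: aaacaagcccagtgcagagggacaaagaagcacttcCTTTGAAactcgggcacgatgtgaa

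The windows of *Gli2* and *Boc* hold the core TTCAAAG on the minus strand, centred 9 bp and 1 bp from the summit. At the other loci the core nearest to any control summit lay farther out, and windows of 41 bases on those cores are given with the core in capitals. These show the form and strand of that nearest core only, since 2 summits held a core at each of *Cdon*, *Gas1* and *Gli1*.
Ptch1, chr13:63627853-63627893: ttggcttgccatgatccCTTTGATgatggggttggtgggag
Smo, chr6:29711175-29711215: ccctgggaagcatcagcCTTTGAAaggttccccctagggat
Cdon, chr9:35324687-35324727: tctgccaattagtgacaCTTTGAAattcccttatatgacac
Gas1, chr13:60146848-60146888: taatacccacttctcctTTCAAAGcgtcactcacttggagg
Hhip, chr8:80091582-80091622: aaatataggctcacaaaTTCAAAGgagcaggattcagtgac
Gli1, chr10:127311851-127311891: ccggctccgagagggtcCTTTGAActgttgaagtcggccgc
The core of *Ptch1* is ATCAAAG and those of the other 5 loci are TTCAAAG. The cores of *Smo* and *Hhip* lie 36 bp and 85 bp from the strongest summit of their locus. Those of *Ptch1*, *Cdon*, *Gas1* and *Gli1* belong to other summits, at distances of 89, 18, 41 and 24 bp.

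β-Catenin was found at every one of the 8 loci in controls and was nearly absent from the C59 lists. The control replicates held 59 and 76 summits over the 8 loci, the C59 replicates 0 and 1. This is a mean of 67.5 ± 12.02 (SD, n = 2) against 0.5 ± 0.707 (SD, n = 2), a difference that exceeds the spread between replicates. The groups did not overlap, and the exact permutation test gave p = 0.333 (two-sided), the smallest value that 2 against 2 samples allow. The consensus lists held 52 summits in controls and 0 after C59. In controls, 4 to 15 summits were called per locus and replicate, and the C59 lists were empty at each locus except *Cdon*.

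**Figure D1:**
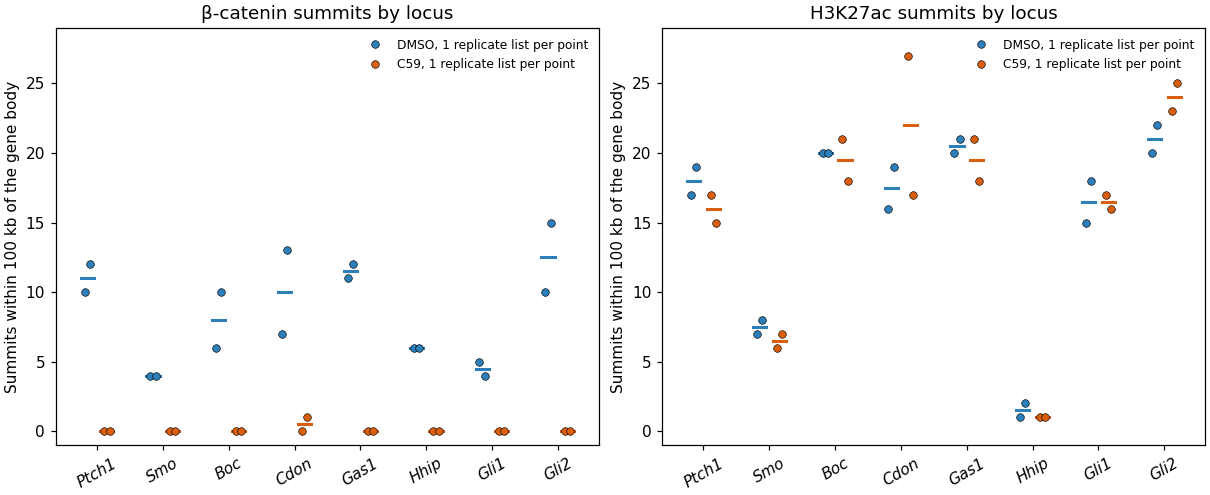
Number of β-catenin (left) and H3K27ac (right) summits within 100 kb of each gene body, with 1 point per replicate list and a bar at the mean of the 2 replicates of a treatment. The C59 points for β-catenin sit at 0 except for a single summit at Cdon, while those for H3K27ac lie in or near the range of the controls at most loci.

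The same difference was seen across the genome and was not confined to hedgehog genes. Fewer β-catenin summits in both C59 lists than in both control lists were counted at 8 of 8 loci and at 65% of all 21938 protein-coding genes, where a gene without control summits cannot pass. A control consensus summit lay within 100 kb of 8 of 8 members and of 58.8% of all genes. The median member had 6.5 control consensus summits, the median gene 1. Scaled to the size of the window, these were 2.27 summits per 100 kb at the members and 0.434 at all genes. A C59 consensus summit lay within 100 kb of 0 of 8 members and of 0.898% of all genes.

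Of the 52 control consensus summits, 0 lay inside a C59 consensus peak, which allows a share of up to 5.77%. Over the whole control list this share was 1.12%, so the members cannot be distinguished from other summits in this respect. The C59 lists needed stronger peaks, because their lowest −log10 p was 5.69 and 5.72 against 3.89 and 3.79 in controls. Of the control summits at the 8 loci, 50 of 59 in replicate 1 (84.7%) and 66 of 76 in replicate 2 (86.8%) were above 5.72 and would have been listed. At background coverage this limit of the replicate lists corresponds to a fold enrichment of up to 4.26, and 45 of the 52 consensus summits reached it. The C59 consensus list had a higher limit, with a lowest −log10 p of 8.92 and a lowest listable fold enrichment of 4.56. Weaker remaining β-catenin was not detectable at this depth.

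By the strongest summit called in each control replicate list, the loci ranked in the order *Gli2*, *Cdon*, *Gas1*, *Smo*, *Ptch1*, *Boc*, *Gli1* and *Hhip*, from 15.1 and 14.1 at *Gli2* down to 8.55 and 8.004 at *Hhip*. The replicate ranges of neighbours in this order overlap for each pair except *Gli1* and *Hhip*. All 52 summits ranged from 3.83 to 16.1 in fold enrichment in the consensus list, with a median of 6.48 against 6.76 for all control summits, and 14 of them reached 10. Consensus summits lie in a peak of each replicate by definition, so a replicate summit nearby was largely given in advance. Such a summit was found within 250 bp in both control replicates for 51 of 52. The exception was a weak shoulder with a fold enrichment of 3.99 near *Mars* in the *Gli1* window.

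**Figure D2:**
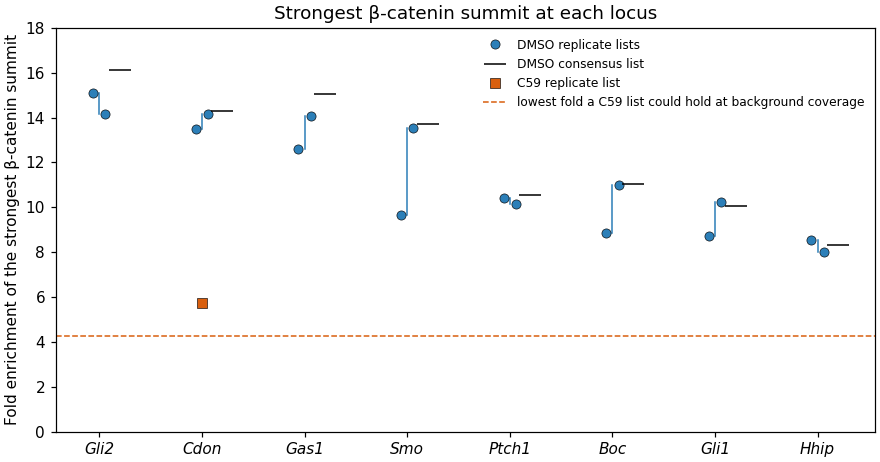
Fold enrichment of the strongest β-catenin summit of each locus, ordered by the mean of the control replicates (points), with the consensus value as a dash. The dashed line marks 4.26, the lowest fold enrichment C59 replicate list 2 could hold at background coverage, and the single C59 summit, at Cdon, sits above it at 5.73.

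*Ptch1* encodes the receptor of hedgehog ligands and is itself switched on by the pathway (ENSMUSG00000021466, chromosome 13 from 63508328 to 63573598, minus strand). It had 10 and 12 β-catenin summits in the control replicates, 9 in the control consensus and 0 in each C59 list. Of the 9, 5 lie inside *Ptch1* and 3 in the neighbouring gene *Fancc*. The strongest of the consensus, at 10.6, lies in an intron of *Fancc* and had 10.4 and 7.64 in the replicates. In replicate 2 another intronic summit of *Fancc* was higher, at 10.1. Inside *Ptch1* the consensus fold enrichments ranged from 4.01 to 6.51. One summit at 63573496 lies in the UTR, 36 bp from a TSS, with a fold enrichment of 4.01 in the consensus and 3.28 and 4.32 in the replicates. Another at 63563199 lies in an intron, 616 bp from a TSS, with 6.25 in the consensus and 7.52 and 3.84 in the replicates. The ninth lay 54.2 kb upstream of *Ptch1* where H3K27ac was called in either condition, and carried the core shown above.

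The summit at 63573496 was also the only one of the 52 with the word GACCACCCA, the consensus that GLI proteins bind, on either strand of the 200 bases around it. It is given in capitals, on the minus strand and centred 27 bp from the summit, because it places a GLI motif beneath a β-catenin peak.
Ptch1, chr13:63573455-63573483: gccctcggcgTGGGTGGTCtgccgcgcca
This is 1.92% of the 52 summits (95% Wilson interval 0.340 to 10.1%) against 0.426% of all control summits. A match is a description of the letters only. In RefSeq promoters, from 250 bases before to 50 after a gene's start, the word was found in 0 of the 6 members with an entry, which are all but *Gli1* and *Boc*, and in 0.253% of 32851 promoters. The RefSeq entry for *Ptch1* begins at another start site than the one beside this summit.

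*Smo* encodes the transmembrane protein that PTCH1 holds inactive (ENSMUSG00000001761, chromosome 6 from 29735503 to 29761365, plus strand). It had 4 β-catenin summits in each control replicate, 3 in the consensus and 0 in each C59 list. All 3 consensus summits lie in other genes, and a TSS of a gene other than *Smo* is nearest to each. The strongest, in an intron of *Tspan33* 24.3 kb upstream of *Smo*, had 9.64 and 13.5 in the control replicates. The other 2 lie within 0.0830 kb and 0.0570 kb of TSSs of *Ahcyl2*, with 4.86 and 5.99 in the consensus. The latter is the summit closest to the limit of the window, at 98.0 kb from *Smo*, while the nearest summit beyond any window was 102 kb from *Cdon* with a fold enrichment of 10.01.

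BOC, CDON and GAS1 bind the ligand at the cell surface and present it to PTCH1. *Boc* (ENSMUSG00000022687, chromosome 16 from 44485049 to 44558897, minus strand) had 6 and 10 summits in the control replicates, 6 in the consensus and 0 after C59. Its strongest, inside the gene 8.57 kb from a TSS, had 8.57 and 10.6 in the replicates and sat 1 bp from a TCF/LEF core. A second, 57.1 kb upstream, was lower in the consensus, at 10.6, but higher in each replicate, with 8.85 and 10.97. The remaining 4 had fold enrichments from 3.83 to 6.39.

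*Cdon* (ENSMUSG00000038119, chromosome 9 from 35421128 to 35507652, plus strand) had 7 and 13 summits in the control replicates and 7 in the consensus, none of them inside the gene. It also had the only C59 summit of the 8 loci. The site lies at 35326991, 94.1 kb upstream of *Cdon* and 51.8 kb from the nearest TSS, that of *Rpusd4*. Its fold enrichment was 13.5 and 14.2 in the control replicates. In C59 replicate 2 a summit was called 11 bp away with 5.73, and in C59 replicate 1 none was called. In fragments, coverage was 120 and 137 in the control replicates and 20 in that C59 replicate. The coverage expected at the site was also higher in controls, at 7.96 and 8.74 against 2.66, so that coverage differed by more than the fold enrichment did. Another strong summit, 72.5 kb from the nearest *Cdon* TSS on the downstream side and 11.7 kb from the TSS of *Gm1113*, had 11.8 and 13.2 in the control replicates and 0 after C59.

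*Gas1* (ENSMUSG00000052957, chromosome 13 from 60174405 to 60177365, minus strand) encodes a GPI-anchored co-receptor in a gene of 2.96 kb. With 11 and 12 summits in the control replicates and 10 in the consensus, it had the most consensus summits of the 8, although its window is the smallest. After C59, 0 were called. *Gas1* has the nearest protein-coding TSS to all 10. The strongest, 54.4 kb upstream, had 12.6 and 14.1, and 2 others at 51.8 kb downstream and 90.5 kb upstream had 12.3 and 11.96 in the consensus. Close to the gene, a summit 170 bp upstream of the TSS had 5.19 in each control replicate. By counts over the 8 replicate lists, the 3 protein-coding genes more than 1 Mb away with the most similar pattern to *Gas1* were *Arid1b*, *Ets1* and *Dym*, at Euclidean distances of 0.26, 0.31 and 0.33 in log2(count + 1). The 8 lists share 2 antibodies, so the measure mostly compares 4 levels.

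*Hhip* encodes a membrane protein that binds and sequesters hedgehog ligands (ENSMUSG00000064325, chromosome 8 from 79965851 to 80058006, minus strand). It had 6 summits in each control replicate, 5 in the consensus and 0 after C59. They were the weakest of the 8 loci, with a median consensus fold enrichment of 4.401 and the highest at 8.34, 33.7 kb upstream. *Hhip* also stood out by its lack of H3K27ac. The lists held 1 and 2 H3K27ac summits in controls and 1 and 1 after C59, against at least 6 in every replicate list of the other 7 loci. Of its β-catenin summits, 0 of 5 lay in an H3K27ac peak of either treatment.

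The transcription factor genes differed in where β-catenin lay. *Gli1* (ENSMUSG00000025407, chromosome 10 from 127329882 to 127341974, minus strand), a direct target of the pathway, had 5 and 4 control summits, 5 in the consensus and 0 after C59. Only 1 of the 5 has *Gli1* as the nearest gene. It lies in the UTR 124 bp from a TSS and was weak, with 3.94 and 2.91 in the replicates. The others sit at the starts of *Mbd6* (8.70 and 10.2 in the replicates) and *Mars* and in an intron of *R3hdm2*. *Gli2* (ENSMUSG00000048402, chromosome 1 from 118834132 to 119053619, minus strand), a main transducer of the signal, had 10 and 15 control summits, 7 in the consensus and 0 after C59. Of these, 4 lie in introns of *Gli2*, including the strongest of all 52, with 15.1 and 14.1 in the control replicates at 77.6 kb from a TSS. A summit 19.4 kb from a TSS, also intronic, had 9.71 and 10.8.

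**Figure D3:**
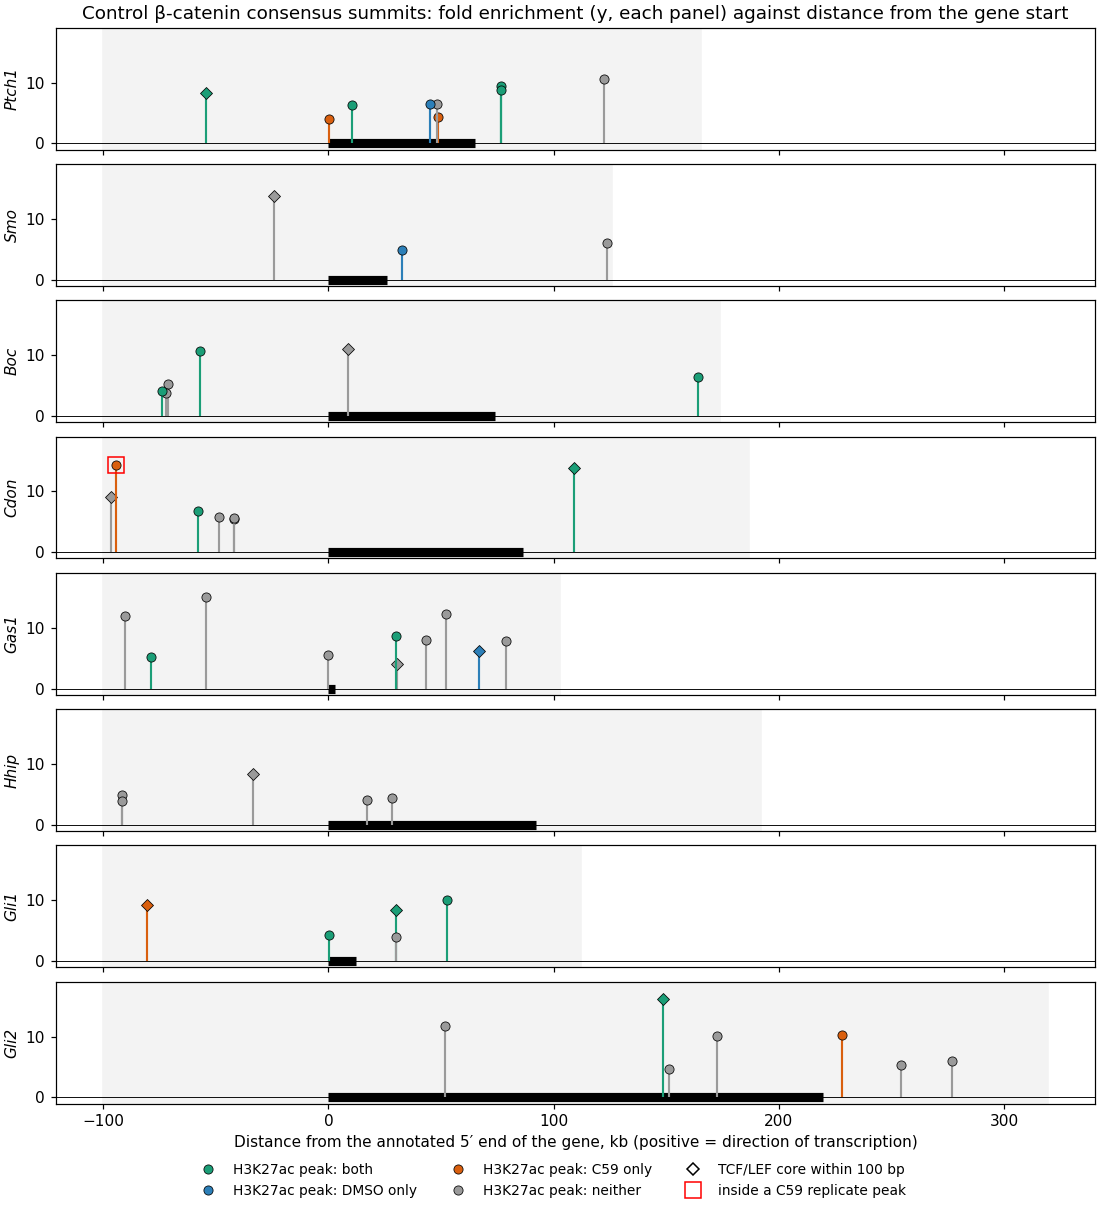
The 52 control β-catenin consensus summits by distance from the annotated 5′ end of each gene in kb (x axis) and fold enrichment (y axis of each panel). The black bar is the gene, the shaded area the window of 100 kb, colour gives the H3K27ac consensus peaks that hold the summit, diamonds have a TCF/LEF core within 100 bp, and the red square is the site upstream of Cdon inside a C59 replicate peak.

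Most of these summits lay away from gene starts. A TSS of the member was less than 1 kb away for 4 of 52, at *Ptch1* (2), *Gli1* and *Gas1*. A TSS of any gene was that close for 14 of 52 (26.9%, 95% Wilson interval 16.8 to 40.3%), against 16.3% of all control summits. By annotation, 13 lay inside the member gene, 7 inside another protein-coding gene and 32 outside protein-coding genes. The member had the nearest protein-coding TSS for 36 of 52. A TCF/LEF core was present within 200 bases centred on the summit for 11 of 52 (21.2%, 12.2 to 34.0%), against 28.6% of all control summits. The summits with a core had a median fold enrichment of 9.11 and those without one 5.99. Of the 14 summits that reached 10, 4 had a core, and a link of the core to strength was not tested. Intervals cover counting error only, since summits of one locus share their libraries and often their peak.

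H3K27ac summit counts at the 8 loci did not separate the treatments. The control replicates held 116 and 129 summits and the C59 replicates 133 and 117, a mean of 122.5 ± 9.19 (SD, n = 2) against 125 ± 11.3 (SD, n = 2). The groups overlapped, and the difference of 2.5 summits gave p = 0.667 in the exact permutation test (two-sided). Its sign depended on the library, as it was −5.5 without C59 replicate 1 and −4 without control replicate 1, but positive without either of the others. Fewer H3K27ac summits in both C59 lists than in both control lists were counted at 0 of 8 loci, against 12.1% of all genes. More were counted at 1 of 8, *Gli2*, with 20 and 22 in controls and 23 and 25 after C59, against 4.84% of all genes. At *Cdon* the C59 replicates differed most, with 27 and 17 summits against 16 and 19 in controls.

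Of the 110 control consensus H3K27ac summits, 100 lay inside a C59 peak (90.9%, 95% Wilson interval 84.1 to 94.99%), against 89.1% of all control summits. In the other direction, 94 of the 110 C59 consensus summits lay inside a control peak (85.5%, 77.7 to 90.8%), against 90.9% of all. The first share was complete at *Gli1*, with 15 of 15, and lowest at *Hhip*, with 0 of 1, and *Smo*, with 6 of 8. Of the 10 control summits outside C59 consensus peaks, 6 lay in neither C59 replicate, which is 6 of 110 against 5.36% of all control summits. Of the 16 C59 summits outside control consensus peaks, 7 lay in neither control replicate, which is 7 of 110 against 4.16% of all C59 summits. These summits were all weak, with fold enrichments of at most 5.07 and 4.30.

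β-Catenin and H3K27ac coincided at a minority of sites. In controls, 18 of 52 β-catenin summits lay in an H3K27ac consensus peak (34.6%, 23.2 to 48.2%), against 22.1% of all control β-catenin summits. *Ptch1* had the most, with 5 of 9, followed by *Gli1* and *Boc*, with 3 of 5 and 3 of 6. At *Gas1* it was 3 of 10. The summits strongest in the consensus list at *Gas1*, *Smo*, *Boc*, *Ptch1* and *Hhip* lay outside H3K27ac consensus peaks in both conditions. The *Boc* summit 57.1 kb upstream, which was the higher in each replicate, lay in H3K27ac consensus peaks of both. Of the 52 sites, 15 were in H3K27ac peaks of both conditions, 3 of controls only, 5 of C59 only and 29 of neither. Of the 18 with H3K27ac in controls, 15 were thus still in an H3K27ac peak after C59, where no β-catenin consensus peak was called. These classes tell whether a consensus peak holds the summit, not whether H3K27ac lies beside it. The *Gas1* site at 60110632, counted for controls only, had H3K27ac within 500 bp at 10.9 and 9.97 in controls and 12.2 and 11.5 after C59. The *Ptch1* site at 63573496, counted for C59 only, had 7.52 and 6.71 against 7.48 and 7.58. Sites with H3K27ac within 500 bp in 1 treatment alone are given below.

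At the β-catenin sites themselves, H3K27ac was higher after C59 at some and lower at others. An H3K27ac summit lay within 500 bp in all 4 replicate lists for 22 of 52 sites. Its fold enrichment was lower in both C59 lists at 5 of the 22, against 15.8% of all control sites with such a summit, and higher in both at 6, against 26%. The median log2 difference, C59 minus control, was 0.10 over the 22 sites and 0.04 over all sites. Its sign changed without control replicate 2 (−0.02) and without C59 replicate 1 (−0.02). The largest positive difference was 57.1 kb upstream of *Boc*, from 3.26 and 4.08 to 5.59 and 6.24. The largest negative difference was 57.8 kb upstream of *Cdon*, from 5.91 and 6.95 to 5.31 and 4.88. Around the start of *Fancc* in the *Ptch1* window, 2 neighbouring sites shared an H3K27ac summit with 11.3 and 10.6 in controls and 8.78 and 9.12 after C59. Both are among the 5 lower sites, so 1 measurement enters the 5 and the 22 as 2 sites. With 2 libraries a side, none of these differences can reach p below 0.333 in the exact permutation test.

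Of the 52 sites, 1 had H3K27ac in both C59 lists and neither control list, against 1.19% of all control sites, and 1 the reverse, against 1.59%. The first was the site 94.1 kb upstream of *Cdon*, where β-catenin was still called in C59 replicate 2. This summit is also the strongest of the *Cdon* window. Here H3K27ac was listed in neither control replicate and at 3.22 and 2.45 after C59. The other was at the start of *Ahcyl2* in the *Smo* window, with 3.63 and 2.79 in controls and none after C59. All 4 values are close to the lowest fold enrichments listable at background coverage, which were 2.83 to 3.02 in these libraries, so that a small difference decides whether a summit is listed.

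At the promoters of the 8 genes, H3K27ac was present in both treatments. A summit lay less than 1 kb from a TSS in all 4 replicate lists for 7 of 8 members, against 50.6% of protein-coding genes. The exception was *Hhip*, with 3.60 in control replicate 2 and 4.02 in C59 replicate 2. The highest promoter values were those of *Cdon*, with 15.2 and 15.7 in controls and 18.1 and 17.3 after C59, and of *Smo*, with 13.5 and 13.4 against 13.5 and 13.1. *Boc* had 9.21 and 9.30 against 9.89 and 8.91. *Ptch1* had 7.52 and 6.71 in controls and 7.48 and 7.58 after C59, and *Gli1* had 6.86 and 6.77 against 7.04 and 6.07. The treatments overlapped at these last 4 genes.

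Promoter H3K27ac was lower in both C59 lists at 0 of 7 members, against 19.7% of 11104 promoters, and higher in both at 3 of 7, against 20.9%. By summed peak width the counts turned round, with 2 lower (*Boc* and *Gas1*) and 0 higher, against 25.5% and 12.2% of promoters. The 3 with higher fold enrichment were *Cdon*, with a log2 difference of 0.19, *Gas1*, with 0.11 (6.09 and 6.55 against 6.64 and 6.98), and *Gli2*, with 0.09 (6.25 and 6.61 against 6.79 and 6.87). Each gave p = 0.333 in the exact permutation test (two-sided). The median over the 7 members was 0.08 and that over all promoters 0.00. The members' median was 0.05 without control replicate 1, 0.03 without control replicate 2 and 0.01 by summed peak width. The pathway targets *Ptch1* and *Gli1*, at 0.08 and −0.06, did not separate the treatments.

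**Figure D4:**
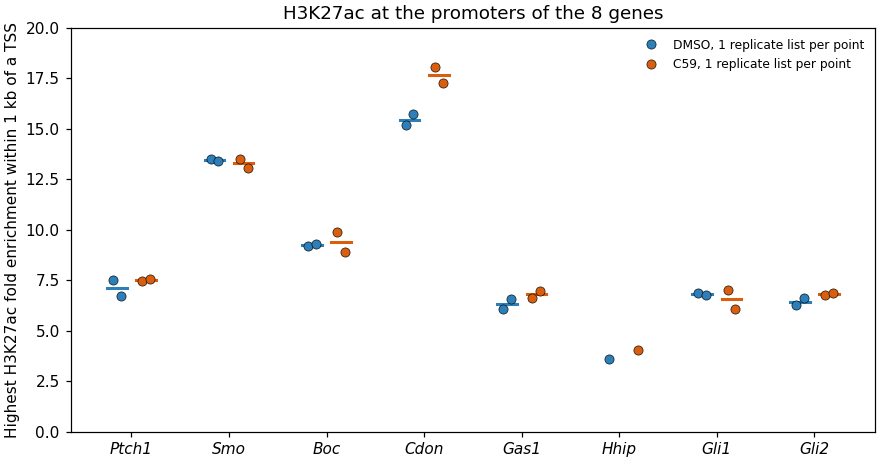
Highest H3K27ac fold enrichment less than 1 kb from a TSS of each gene, with 1 point per replicate list and a bar at the mean where both replicates have a value. C59 points lie above the controls at Cdon, Gas1 (lower by summed peak width) and Gli2 and overlap them at Ptch1, Smo, Boc and Gli1, and Hhip has 1 value per treatment.

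At other hedgehog pathway genes, β-catenin summits were likewise fewer after C59. Of 31 further ligands, processing factors, regulators and ciliary components, 23 had a control consensus summit within 100 kb and 23 had fewer summits in both C59 lists, against the 58.8% and 65% of all genes given above. A C59 consensus summit was within 100 kb of 2 of the 31, against 0.898% of all genes. These were *Disp1*, which releases the ligand from cells, and *Scube1*. *Disp1* had 9 and 11 β-catenin summits in control replicates and 1 and 2 after C59. The repressor gene *Gli3* had 8 and 8 against 0 and 0, and *Sufu*, which restrains the GLI proteins, 11 and 7 against 0 and 0. The ligand gene *Shh* had 1 and 0 against 0 and 0, and no H3K27ac summit in any list. The limb enhancer of *Shh* lies far outside this window. H3K27ac counts were lower in both C59 lists at 1 of the 31, *Spop*, against 12.1% of all genes. They were higher at 1, *Kif3a*, against 4.84% of all genes.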

How the data were processed

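The 12 deposited peak lists were used, 8 of single replicates and 4 consensus lists, and the 4 input samples were not used here. Per the submitters' processing notes, the authors mapped reads to mm10 with Bowtie2 2.4.5 and called peaks with MACS2 2.2.7.1, and Picard 2.27.4 was among the tools. Per the study's methods, alignments with a mapping quality under 30 were removed and input was not used for calling. For every summit the authors deposited a fold enrichment, which is the ratio of coverage to the coverage expected in that library, along with a −log10 p-value and −log10 q-value. The lowest −log10 q-value was 1.30 to 1.38 in the deposited replicate lists, but the p-value it corresponds to differed between lists. An unlisted peak may still be present at a lower level.

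Positions were read on GRCm38 with GENCODE M21, and 0 peaks passed a chromosome end. Fold enrichment and p were solved for coverage, which came out whole (100% of solved rows in each list) and gave the depth. A summit was shared if a peak of the other list contained it, and matched between lists if 250 bp or less apart. Motifs were searched on both strands. ATCAAAG and TTCAAAG share their last 6 bases, and the word GACCACCCA does not overlap them. Counts were compared by an exact permutation test over the 4 lists of an antibody, and shares carry 95% Wilson intervals beside the same share over all summits on chromosomes 1 to 19, X and Y. With no molecular identifiers, intervals and limits for a count of 0 (3 counts) cover counting error only.

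The genes, lists and tests were chosen with earlier results of these data known. The text names all 8 members, the strongest control summit of each, every summit less than 1 kb from a member TSS and every one still in a C59 peak, and 4 of 31 other pathway genes with values, and another that the rule named is not reported here. Other sites, the GLI word in the *Ptch1* window and the H3K27ac values within 500 bp of β-catenin summits were chosen after the values were seen. Per the study's methods, each replicate was a pool of forelimb buds, and consensus lists came from replicates thinned to equal read numbers. Functions were tested on simulated data. Sequences were read with pysam 0.24.0 and tests run with scipy 1.17.1, numpy 2.4.6 and pandas 2.3.3 under Python 3.11.15.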

Additional observations from a re-analysis of the deposited data

How the results depend on the processing

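The lower count of β-catenin summits after C59 kept its direction under all 12 alternatives, with differences from −112.5 summits in windows of 250 kb to −39.5 at a fold enrichment of at least 5. The C59 replicates held 0 and 1 summits, so settings that only remove summits or a replicate could hardly reverse this direction. Leaving out single replicates gave −75.5 to −58.5. The shares of control β-catenin summits inside C59 peaks (0 to 1.92%) and near a TSS (23.1 to 30.8%) stayed within their intervals under the alternatives run. The H3K27ac difference of 2.5 summits turned negative for summits whose nearest TSS is a member (−5.5), at −log10 q of at least 5 (−4), and at fold enrichment of at least 5 (−7), and leaving out single replicates gave −5.5 (without C59 replicate 1) to about 11 (without C59 replicate 2, 133 against a control mean of 122.5). The share of control H3K27ac summits in C59 peaks was 72.1% between the lists numbered 2. The share with a TCF/LEF core was 11.5% in 100 bp, 34.6% in 400 bp and 5.77% for ATCAAAG alone. That in H3K27ac peaks was 51.9% with peaks extended by 1 kb. The shares over all control summits, 28.6% and 22.1%, hold for the main settings only. These alternative shares can therefore not be read as high or low. The median promoter difference was 0.00602 by summed peak width, where 2 members were lower and 0 higher, and 0.0270 (without control replicate 2) to 0.0940 without single replicates. For H3K27ac beside β-catenin summits, settings chosen after seeing the data gave −0.0727 within 250 bp and −0.0217 to 0.143 without single replicates. The causes were not tested. Replicate numbers were shared by the groups without a stated pairing, and the deviations of equal numbers correlated at −0.00365 (β-catenin summits per gene) and −0.0409 (H3K27ac). With the number as a block the differences were −67 and 2.5 summits (exact sign-flip p = 0.5 and 1), and the promoter median was 0.08, all as without the block.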
